A study of Rattus norvegicus with 4 samples.

Results

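The Wnt pathway genes described here are 41 genes of the 14217 that carry a single gene symbol on the Affymetrix Rat 230 2.0 array. They are every gene on the array named Wnt, Fzd, Sfrp or Dkk followed by a number, and 15 further components of the pathway chosen by name (Ctnnb1, Axin1, Axin2, Apc, Lef1, Tcf7l1, Tcf7l2, Lrp5, Lrp6, Dvl1, Dvl2, Gsk3b, Wif1, Nkd1 and Lgr4). Where a gene had several probe sets, which are the array's groups of probes against a transcript, it was represented by the probe set whose log2 signal had the highest mean over the 4 arrays. RNA came from RT4D6 cells, a rat Schwannoma line, that is, a tumour line of the glia of peripheral nerves. Of 4 cell samples, 2 received the wild type siRNA against Sox10, which is the specific one, and 2 received the mutant siRNA, which served as control. All 4 were collected at 48 h, and each was hybridised to an array of its own. Both groups are the same cell line with a transfected siRNA, without an untransfected sample among those used here. The study asked which genes of these cells depend on Sox10, an HMG box transcription factor of the neural crest and its glia.

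Wnt proteins are secreted ligands that bind Frizzled receptors, and in the canonical branch also the co-receptors Lrp5 and Lrp6. Without a ligand, a complex of Axin, Apc and the kinase Gsk3b marks beta-catenin (Ctnnb1) for destruction. With a ligand, Dishevelled proteins (Dvl) block that complex, and beta-catenin enters the nucleus and acts with the factors Lef1, Tcf7, Tcf7l1 and Tcf7l2. Secreted Sfrp and Wif1 proteins bind the ligands, and Dkk1 and its closest relatives block the co-receptors. Wnt signals take part in the formation of the neural crest and in the development of Schwann cells.

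The values are MAS5 signals on a linear scale, and each array has a mean signal of 500 after 2% of the probe sets are trimmed at either end. The array medians lay between 101.3 and 110.4 and the 25th percentiles, near which signals are close to background, between 26.2 and 31.0. A probe set was tested where it was at or above the median on at least 2 arrays. A log2 fold change is the wild type minus the mutant siRNA, with log2 signals centred on the array median, and a gene was called at an adjusted p under 0.05 from limma. The targeted gene itself had signals of 2873 and 2890 with the mutant siRNA and 163 and 335 with the wild type siRNA. This was an 11.7-fold decrease in Sox10 (adjusted p = 0.00130). Of the Schwann cell markers, 7 of 8 tested were lower, beside 10.6% of all genes tested, and 1 of the 7 is Sox10 itself, the target of the siRNA. Egr2 was not lower (log2 fold change -0.07, adjusted p = 0.951). Erbb3, also among the 7, went from 673.6 and 437.9 to 35.0 and 32.6. It reached the median on the mutant siRNA arrays alone, and so entered the test through the group in which it was high. The summed signal of the 8, Sox10 included, was 21782 to 32083 with the mutant and 5930 to 6012 with the wild type siRNA. The smooth muscle markers had summed signals of 6910 to 12484 with the mutant and 32556 to 44378 with the wild type siRNA. Of them, 3 of 5 tested were higher (Myl9, Acta2 and Tagln), beside 17.4% of all genes tested. The others did not rise together. Smtn had a log2 fold change of -0.84 (adjusted p = 0.0633, and 0.0127 with same-numbered arrays paired, the replicate block). Myh11 went from 95.6 and 35.2 to 137.6 and 147.4 (log2 fold change 1.37, adjusted p = 0.137), reaching the median on the wild type siRNA arrays alone. Des, Tpm2 and Myocd, too dim to test as were Cnn1 and Lmod1, had lower signals with the wild type siRNA in both pairs. None of the markers tested of fibroblasts (3), macrophages (1) or endothelium (1) passed, and of the 3 tested neuronal markers Map2 was lower. With the replicate block the collagens Col1a1 (log2 fold change 0.70, adjusted p = 0.0240) and Col3a1 (1.5, adjusted p = 0.0277) passed as higher, while Postn, at 25073 to 26944 on the 4 arrays, makes up most of the fibroblast sum. Summed signals with the mutant and the wild type siRNA were 26687 to 28671 and 27344 to 29223 for fibroblasts, 583 to 934 and 871 to 1040 for macrophages, 137 and 185 to 300 for endothelium, and 2291 to 3473 and 1381 to 1737 for neurons. Cd14, at 453.3 to 777.8 on the 4 arrays, makes up most of the macrophage sum. Map2, at 913.1 to 2740, makes up most of the neuronal sum. Of the fibroblast markers, Dcn and Lum reached at most 26.0 and 24.1 on any array, while Pdgfra reached 92.0 and Thy1 78.6. Of the endothelial markers, Vwf reached at most 8.90 and Pecam1 61.5, and Tek lay between 109.9 and 142.1. Kdr, too dim to test, was at 17.7 and 12.1 with the mutant and 94.1 and 34.8 with the wild type siRNA. The part of these changes in the results on Wnt genes was not tested, and in bulk RNA fewer cells of a type and less RNA per cell cannot be told apart.

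Of the 41 genes, 21 were bright enough to test and 20 were not. Down-regulated by the specific siRNA were 5 of the 21 (23.8%), namely Axin2, Dkk3, Lef1, Fzd8 and Fzd2, where 10.6% of all 9163 genes tested were lower. Up-regulated were 3 of the 21 (14.3%), namely Gsk3b, Fzd3 and Lgr4, where 17.4% of all genes were higher. The remaining 13 did not pass the test. The median log2 fold change of the 21 was -0.05, beside 0.19 over all genes tested. The changes thus went in both directions within the pathway and also within the Frizzled family. The array carries 13 of the ligands, 10 receptors and co-receptors, 7 secreted inhibitors, 8 cytoplasmic components and 3 nuclear factors of the set. Without mutant siRNA replicate 1, the array with the highest ratio of 3' to 5' actin signal (1.87, against 1.39 to 1.54 on the others), limma called none lower (4 at an unadjusted p under 0.05) and 3 higher. Lower calls numbered 2 with wild type siRNA replicate 1 removed, and again 2 with mutant siRNA replicate 2 removed. Whether the actin ratio played a part was not tested.

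**Figure D1:**
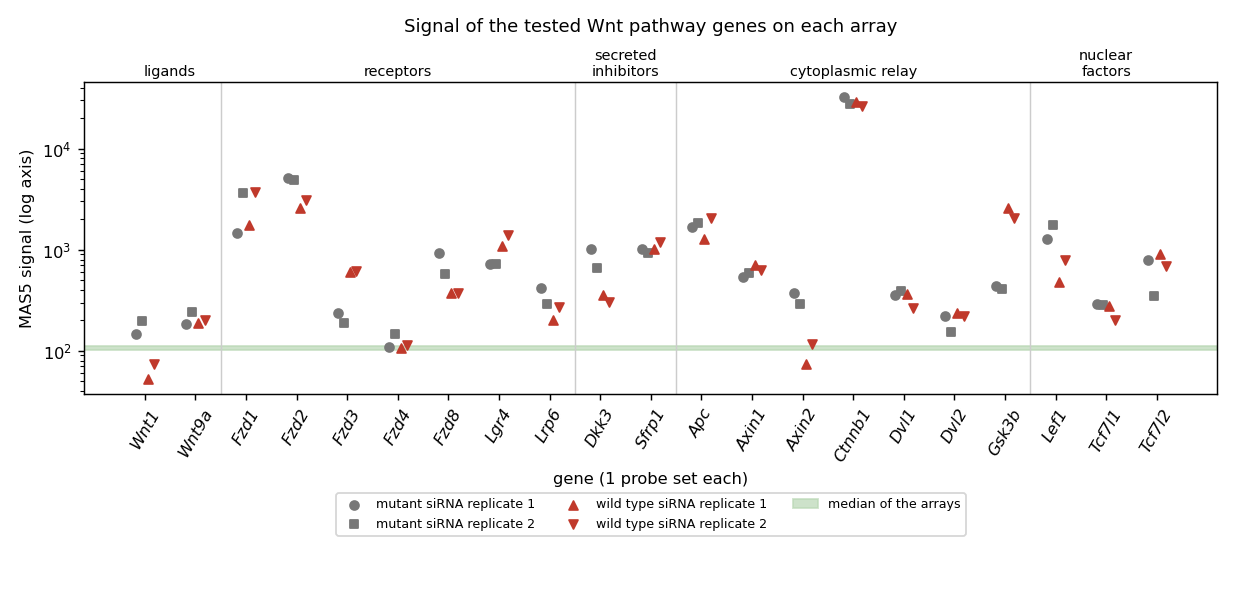
Signals (MAS5, log axis) of the 21 tested Wnt pathway genes on each of the 4 arrays, grouped by role. Grey symbols are the mutant siRNA arrays, red symbols the wild type siRNA arrays, and the green band spans the array medians. Gsk3b lies at 2072 and 2578 with the wild type siRNA, above 409 and 438 with the mutant siRNA, while Ctnnb1 lies between 26141 and 32761 on all arrays.

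Among the ligands no gene passed the test, and only Wnt1 and Wnt9a were bright enough for it. Wnt1, the ligand known from the midbrain and the neural crest, had signals of 147.7 and 195.0 with the mutant siRNA and 52.1 and 73.3 with the wild type siRNA. The groups do not overlap, and its log2 fold change was -1.38 (SE, the standard error from limma, 0.50), but the adjusted p was 0.0735. It was the only tested member at or above the median on just 2 arrays, those of the mutant siRNA, and so entered the test through the group in which it was high. Its adjusted p fell to 0.0408 in limma without an intensity trend and 0.0471 without wild type siRNA replicate 2, and reached 0.321 without mutant siRNA replicate 2. Wnt9a was similar on all 4 arrays, at 186.1 and 239.8 with the mutant and 188.1 and 203.9 with the wild type siRNA. Its log2 fold change was -0.03 (SE 0.31, adjusted p = 0.954).

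The other 11 ligands (Wnt2, Wnt2b, Wnt4, Wnt5a, Wnt5b, Wnt6, Wnt7a, Wnt8b, Wnt10a, Wnt11 and Wnt16) had signals between 2.20 and 153.2. Of their 44 values, 24 lay below the 25th percentile of their own array and 2 reached the median, so that no direction is given for them. The highest, Wnt11 at 153.2 on mutant siRNA replicate 1, was at 8.90 on the second mutant siRNA array. Wnt2 had signals of 77.3 and 79.8 with the mutant siRNA and 5.80 and 39.5 with the wild type siRNA, and all 4 were under the array median. For Wnt5a, a ligand best known from non-canonical signalling, they were 50.9 and 5.30 with the mutant siRNA and 30.1 and 21.2 with the wild type siRNA. Wnt6 was at 68.6 and 9.30 with the mutant and at 114.1 and 68.0 with the wild type siRNA. The mutant siRNA arrays thus differed from each other by more than the groups did for Wnt5a and Wnt6.

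**Figure D2:**
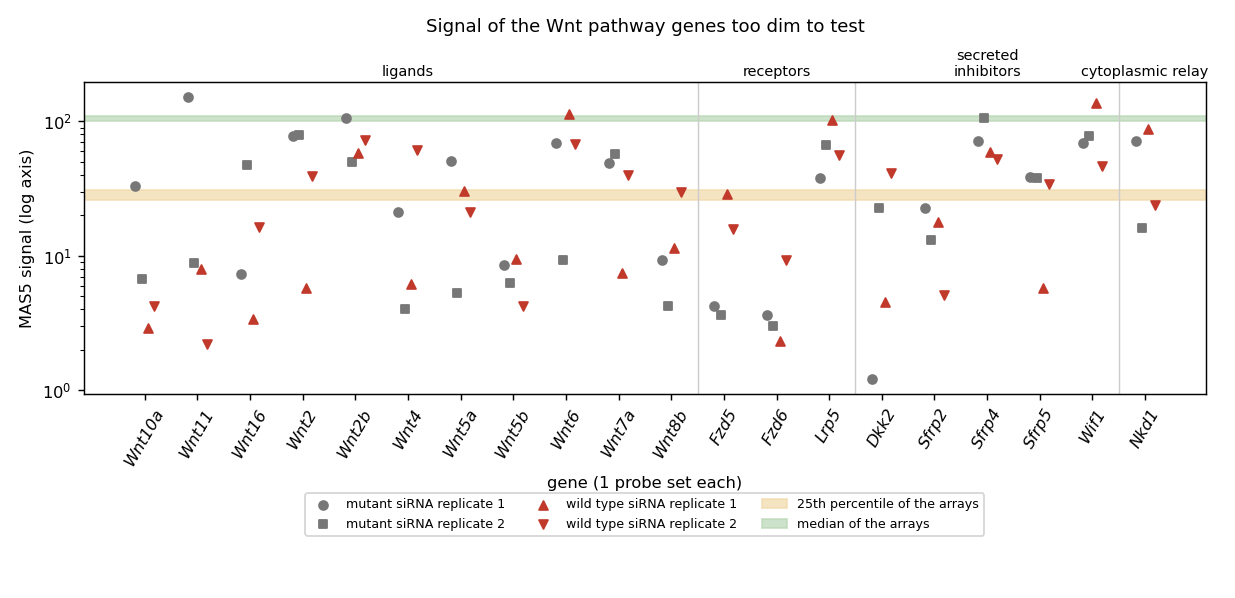
Signals (MAS5, log axis) of the 20 Wnt pathway genes that were too dim to test, by role and array. Symbols are as for the tested genes, the green band spans the array medians and the tan band the 25th percentiles of the arrays (26.2 to 31.0). Of the 80 values, 41 lie below the 25th percentile of their array and 3 at or above its median.

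The receptors moved in both directions. Fzd3, a Frizzled receptor known for its part in axon guidance and planar polarity, had signals of 234.5 and 187.3 with the mutant siRNA and 597.3 and 620.2 with the wild type siRNA. It was up-regulated 3.07-fold, with a log2 fold change of 1.62 (SE 0.25, adjusted p = 0.00458). Both wild type arrays lay well above both mutant arrays, and the call held when any 1 array was removed, the adjusted p reaching 0.0281.

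Fzd2 and Fzd8 went the other way. Fzd2 had signals of 5076 and 4880 with the mutant siRNA and 2594 and 3088 with the wild type siRNA, a log2 fold change of -0.74 (SE 0.18, adjusted p = 0.0191). Fzd8 went from 926.9 and 580.2 to 375.3 and 374.2, a log2 fold change of -0.89 (SE 0.28, adjusted p = 0.0451). The groups do not overlap for either gene, but the mutant siRNA arrays of Fzd8 lay far apart, and its log2 ratio was -1.27 in the replicate 1 pair and -0.51 in the replicate 2 pair. Both calls rested on several of the arrays. That of Fzd2 was lost without any array but wild type siRNA replicate 2 (adjusted p between 0.0732 and 0.0999 without the other 3). The call of Fzd8 held without mutant siRNA replicate 2 alone, and without mutant siRNA replicate 1 its log2 fold change was -0.53 (adjusted p = 0.273).

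Fzd1 did not pass (log2 fold change 0.21, SE 0.45, adjusted p = 0.758). Its signals followed the replicate number instead, at 1470 with the mutant and 1755 with the wild type siRNA on the replicate 1 arrays, and at 3678 and 3689 on the replicate 2 arrays. Fzd4 is measured by probe sets that differ. The brighter had signals of 108.9 and 147.6 with the mutant and 105.9 and 113.1 with the wild type siRNA, a log2 fold change of -0.13 (adjusted p = 0.846). The dimmer went from 6.30 and 54.7 to 164.6 and 140.2, a log2 fold change of 3.11 that did not pass the test (SE 1.12, adjusted p = 0.0710). With the replicate block its adjusted p was 0.0476. This probe set reached the median on the wild type siRNA arrays alone and so entered the test through the group in which it was high, and on mutant siRNA replicate 1 it was near background. Fzd5 was at most at 28.8 on the probe set used and at 41.8 on its other probe set, and Fzd6 at most at 9.30. Neither gene was tested.

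Of the co-receptors, Lrp6 had signals of 415.0 and 287.3 with the mutant and 203.9 and 273.7 with the wild type siRNA. Its log2 fold change of -0.47 (SE 0.31) did not pass (adjusted p = 0.290), and the log2 ratio was -0.99 in the replicate 1 pair and 0.05 in the replicate 2 pair. Lrp5 lay between 38.2 and 101.9 and was not tested. Lgr4, a receptor for R-spondins, the secreted proteins that strengthen Wnt signals, went from 714.2 and 724.9 to 1079 and 1386. This was a log2 fold change of 0.84 (SE 0.22, adjusted p = 0.0253), with both wild type arrays above both mutant arrays. With mutant siRNA replicate 1 removed Lgr4 did not pass (adjusted p = 0.0975), nor with mutant siRNA replicate 2 (0.105) or wild type siRNA replicate 2 (0.0803) removed.

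**Figure D3:**
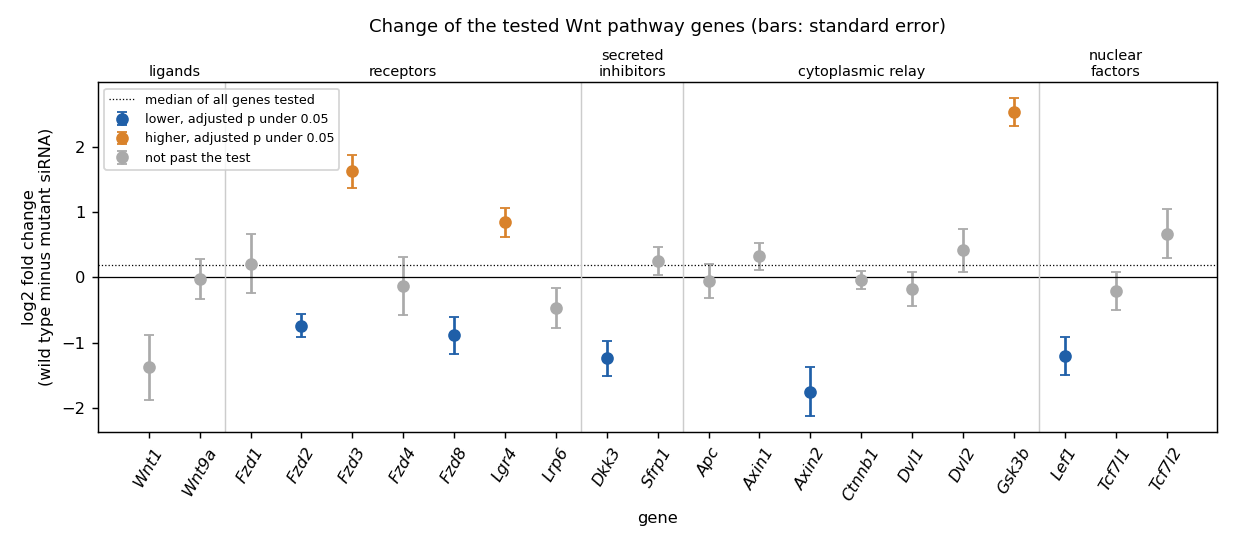
Log2 fold change (wild type minus mutant siRNA, 2 arrays each) of the 21 tested Wnt pathway genes, with the standard error from limma as bars. Blue and orange points passed an adjusted p under 0.05, grey points did not, and the dotted line is the median of all genes tested, 0.19. Axin2 is lowest at -1.75 and Gsk3b highest at 2.53.

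Among the secreted inhibitors, Dkk3, a divergent member of the Dickkopf family, fell. Its signals were 1013 and 658.3 with the mutant siRNA and 354.0 and 303.6 with the wild type siRNA. The log2 fold change was -1.24 (SE 0.27, adjusted p = 0.0138), a 2.36-fold decrease. Both wild type arrays lay below both mutant arrays, but the gene did not pass once mutant siRNA replicate 1 was removed (log2 fold change -0.91, adjusted p = 0.0965). Its other 3 probe sets were near background, at 1.40 to 35.4. Sfrp1, which binds Wnt ligands, stayed near the same level, at 1015 and 937.4 with the mutant and 1005 and 1203 with the wild type siRNA. Its log2 fold change was 0.25 (SE 0.21, adjusted p = 0.396), and its dimmer probe sets gave 0.36 and 0.16, neither past the test. Dkk2, Sfrp2, Sfrp4, Sfrp5 and Wif1 were too dim to test, with signals between 1.20 and 136.8.

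In the cytoplasm, the largest change of the whole set was that of Gsk3b, the kinase that phosphorylates beta-catenin in the destruction complex and has many other substrates. Its signals were 438.2 and 409.2 with the mutant siRNA and 2578 and 2072 with the wild type siRNA. It was up-regulated 5.77-fold, with a log2 fold change of 2.53 (SE 0.21, adjusted p = 0.00102). The log2 ratio was 2.59 in the replicate 1 pair and 2.46 in the replicate 2 pair, so that the pairs differed little. With any 1 array removed the change stayed between 2.40 and 2.66, and the adjusted p reached at most 0.0103. A single probe set carries the gene, so this change has no second measurement on the array.

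Axin2, a scaffold of the destruction complex and a widely used readout of beta-catenin activity, fell. Its signals were 376.1 and 289.5 with the mutant siRNA and 74.8 and 116.0 with the wild type siRNA, a 3.35-fold decrease. The log2 fold change was -1.75 (SE 0.38, adjusted p = 0.0138), with log2 ratios of -2.30 and -1.20 in the pairs. No array overlapped between the groups. Axin2 did not pass once mutant siRNA replicate 1 (adjusted p = 0.107) or mutant siRNA replicate 2 (0.0527) was removed. Axin1, its close relative, which is not known as a target of the pathway, had signals of 536.9 and 584.1 with the mutant and 702.3 and 626.0 with the wild type siRNA and did not pass (log2 fold change 0.32, SE 0.21, adjusted p = 0.280).

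The RefSeq promoter of Axin2 (build GRCr8, plus strand) is shown because the gene is the lowest of the set and its promoter holds the letters read by TCF and LEF factors. The 250 bases before the annotated start lie at chr10:94398535-94398784, and capitals mark CTTTGA:
Axin2: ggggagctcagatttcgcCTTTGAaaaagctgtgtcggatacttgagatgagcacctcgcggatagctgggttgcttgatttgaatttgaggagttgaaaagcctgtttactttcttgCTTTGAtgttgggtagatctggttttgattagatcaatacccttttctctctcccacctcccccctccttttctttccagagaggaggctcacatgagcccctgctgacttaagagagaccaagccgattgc

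The TCF/LEF core was searched as CTTTGA or CTTTGT and the Sox core as ACAAT, each on both strands. ACAAT shares only the letters ACAA with ACAAAG, the reverse complement of CTTTGT, so a match to either is not a match to the other. The CTTTGA matches of Axin2 begin 232 and 132 bases before the start, and no ACAAT lies in this stretch. A TCF/LEF core was found in 6 of the 30 promoters of the set that the reference holds (20.0%) and in 27.5% of all 33465 promoters over the same length. An ACAAT core was found in 6 of the 30 (20.0%) and in 30.0% of all. The shares of the set were thus not above those of all promoters. Of the called genes, Lef1, Gsk3b and Lgr4 had neither core in this window. Fzd8 had an ACAAT core, here on the minus strand as ATTGT in capitals, 10 bases before the start, within chr17:62009974-62009993 on the plus strand:
Fzd8: accctgtggaATTGTggcgc

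Beta-catenin itself did not change beyond the spread of its arrays. Ctnnb1 had signals of 32761 and 27424 with the mutant siRNA and 29033 and 26141 with the wild type siRNA, a log2 fold change of -0.04 (SE 0.14, adjusted p = 0.844). Its 2 further bright probe sets gave -0.05 and 0.00. Apc (log2 fold change -0.05, SE 0.26), Dvl1 (-0.18, SE 0.26) and Dvl2 (0.41, SE 0.33) did not pass either, with adjusted p of 0.896, 0.645 and 0.374. Nkd1, an inhibitor of Dishevelled, had signals of 71.8 and 16.2 with the mutant and 87.5 and 23.8 with the wild type siRNA and was not tested. These RNA levels say nothing about the amount or place of the beta-catenin protein.

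Of the nuclear factors, Lef1 fell. Its signals were 1291 and 1741 with the mutant siRNA and 479.4 and 799.8 with the wild type siRNA, a log2 fold change of -1.20 (SE 0.29, adjusted p = 0.0199). A second bright probe set of Lef1 went from 1210 and 1462 to 559.1 and 550.8, a log2 fold change of -1.18 (SE 0.21, adjusted p = 0.00638). Both probe sets thus gave the same direction and nearly the same size, with no overlap between the groups. The first did not pass with mutant siRNA replicate 2 (adjusted p = 0.115), mutant siRNA replicate 1 (0.0503) or wild type siRNA replicate 1 (0.0525) removed. Tcf7l1, mostly a repressor, was at 292.6 and 284.1 with the mutant and 277.8 and 200.5 with the wild type siRNA (log2 fold change -0.21, SE 0.29, adjusted p = 0.612). Its dimmer probe set went the other way, at 0.50 (adjusted p = 0.502), and the mean of both gave 0.14 (adjusted p = 0.79). Tcf7l2 was at 790.3 and 349.9 with the mutant and 916.0 and 686.3 with the wild type siRNA, so that the groups overlap. Its log2 fold change was 0.67 (SE 0.37, adjusted p = 0.205). It passed with the replicate block (adjusted p = 0.0470), and without mutant siRNA replicate 1 (log2 fold change 1.28, adjusted p = 0.0413). Without mutant siRNA replicate 2 its log2 fold change was 0.07. A second tested probe set of Tcf7l2 gave -0.09 (adjusted p = 0.921), and the mean of all its probe sets 0.35 (adjusted p = 0.679).

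**Figure D4:**
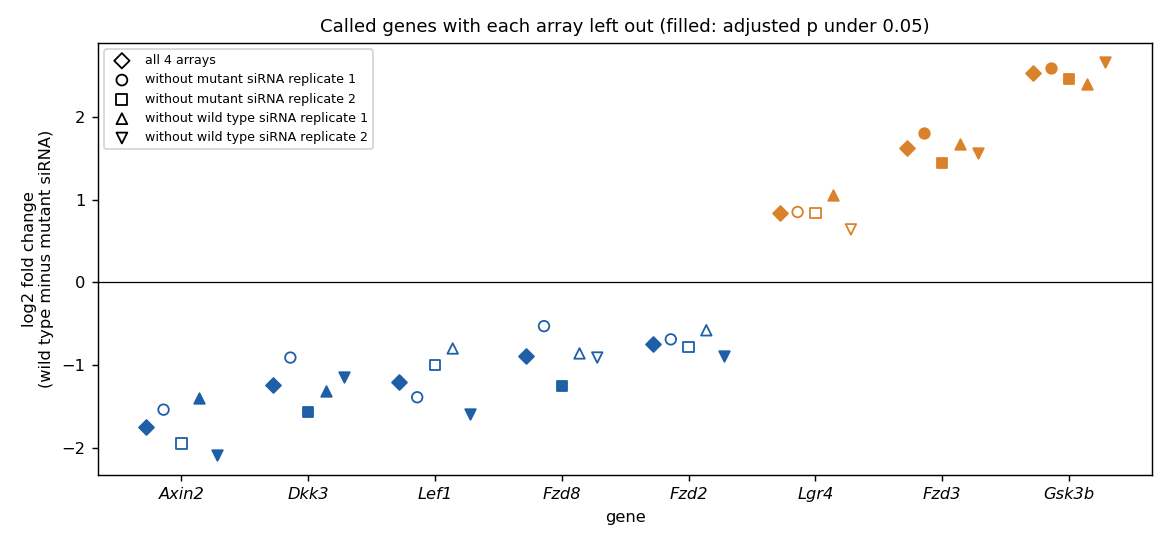
Log2 fold change (wild type minus mutant siRNA) of the 8 called Wnt pathway genes with all 4 arrays (diamonds) and with 1 array removed at a time. Filled symbols have an adjusted p under 0.05 from limma and open symbols do not, and a lone array is assumed to vary like the other group. Every symbol of Gsk3b and Fzd3 is filled, whereas each of the other 6 genes has at least 1 open symbol.

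Further components of the pathway were read from 4 lists, chosen from textbook knowledge with earlier results of these data known. In the first, other Wnt machinery, 8 of 34 tested genes were lower (23.5%) and 4 were higher (11.8%), with a median log2 fold change of 0.01. For each list these shares stand beside 10.6% lower and 17.4% higher, and a median of 0.19, over all genes tested. The largest decrease was that of Nkd2, the relative of Nkd1 that inhibits Dishevelled, from 2216 and 3172 to 228.9 and 427.2. Its log2 fold change was -3.00 (SE 0.33, adjusted p = 0.00165). Tle3, a co-repressor that binds TCF factors, went from 1376 and 959.7 to 217.8 and 288.4, a log2 fold change of -2.12 (SE 0.28, adjusted p = 0.00275). Tcf7, a nuclear partner of beta-catenin, fell from 818.7 and 715.4 to 272.2 and 266.2 (log2 fold change -1.43, adjusted p = 0.00481). Znrf3, a ubiquitin ligase that removes Frizzled receptors, was at -1.07 (adjusted p = 0.0458), a call kept without wild type siRNA replicate 1 but lost without any of the other 3 arrays (adjusted p between 0.0965 and 0.255). Among those that rose, Btrc, the F-box protein that recognises phosphorylated beta-catenin, went from 258.4 and 239.7 to 825.8 and 589.3 (log2 fold change 1.57, SE 0.25, adjusted p = 0.00489). The mean of all probe sets of Btrc gave 0.41 and did not pass (adjusted p = 0.445). Wls, which carries Wnt proteins to the cell surface, rose from 1572 and 1893 to 2745 and 4344 (log2 fold change 1.08, adjusted p = 0.0165), but did not pass with either mutant siRNA array removed (0.0864 and 0.0501).

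In the list of genes often cited as targets of beta-catenin and TCF, 8 of 16 tested were lower (50.0%) and 2 were higher (12.5%). The median log2 fold change was -0.78. Over all genes tested 10.6% were lower, 17.4% were higher and the median was 0.19. Because the list was chosen with earlier results of these data known, its difference from all genes is not a test. Tcf7 and Znrf3 are in this list as well. Tnfrsf19, a receptor of the TNF family, went from 470.8 and 587.7 to 60.4 and 143.3, a log2 fold change of -2.42 (SE 0.43, adjusted p = 0.00710) that was just lost without mutant siRNA replicate 2 (0.0514). Fosl1, an AP-1 factor, was at -1.70 (adjusted p = 0.00365), the ephrin receptor Ephb3 at -1.44 (0.00978) and Birc5, a protein of dividing cells, at -1.26 (0.00963). Ephb3 did not pass with mutant siRNA replicate 1 removed (adjusted p = 0.0731), nor Birc5 with mutant siRNA replicate 2 removed (0.0670). Fst, an activin-binding protein, rose from 242.4 and 446.4 to 1424 and 1173, a log2 fold change of 2.05 (SE 0.30, adjusted p = 0.00347). Singled out after their values were seen, Ccnd1, the G1 cyclin, fell from 10838 and 9201 to 4891 and 4089 (log2 fold change -1.08, SE 0.17, adjusted p = 0.00429), while Myc did not pass, at 417.0 and 677.2 against 676.5 and 757.4 (log2 fold change 0.51, adjusted p = 0.186). Several of these genes answer to other pathways too, and Lgr5, Sall4, Mmp7 and 6 more on the array were too dim to test.

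Of the genes of non-canonical signalling and planar polarity, 2 of 15 tested were lower (13.3%) and 1 was higher (6.7%), with a median log2 fold change of 0.36. The replicate block made 3 of them higher, adding Ptk7 (1.27, adjusted p = 0.0633 without and 0.000261 with the block) and Vangl2 (0.96, adjusted p = 0.0646 and 0.0488), both of them polarity genes. Celsr2, a polarity cadherin, was at -1.21 (SE 0.25, adjusted p = 0.0109) and did not pass with mutant siRNA replicate 1 removed (0.0771). Prickle2, a polarity protein, was at -1.60 (SE 0.46, adjusted p = 0.0355), but its log2 ratio was -2.72 in the replicate 1 pair and -0.48 in the replicate 2 pair, and the call was lost without either replicate 1 array (adjusted p = 0.0966 and 0.216). Camk2d, a calcium-dependent kinase, rose from 2192 and 1465 to 4159 and 3876 (log2 fold change 1.24, SE 0.22, adjusted p = 0.00726), but the mean of its probe sets, at 1.04, did not pass (adjusted p = 0.140). In the cadherin complex, which holds beta-catenin at the membrane, 2 of 6 tested genes were lower (33.3%) and 1 was higher (16.7%), and the median was -0.15. Jup, or plakoglobin, the closest relative of beta-catenin, fell from 2845 and 2346 to 961.7 and 1266, a log2 fold change of -1.15 (SE 0.22, adjusted p = 0.00918). Jup did not pass with mutant siRNA replicate 1 removed (adjusted p = 0.0647). The P-cadherin gene Cdh3 was at -1.29 (adjusted p = 0.0241) and Cdh6 at 1.38 (0.0272), and each call was lost with any of 3 arrays left out, the exception being wild type siRNA replicate 2 for Cdh3 and wild type siRNA replicate 1 for Cdh6. Over the 4 lists, 18 of 69 tested genes were lower (26.1%) and 8 were higher (11.6%), beside 10.6% and 17.4% of all genes. With either mutant siRNA array removed, fewer of the 69 were called in each direction, and also fewer of all probe sets tested. Without wild type siRNA replicate 2 fewer were called higher, again as over all probe sets.

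**Figure D5:**
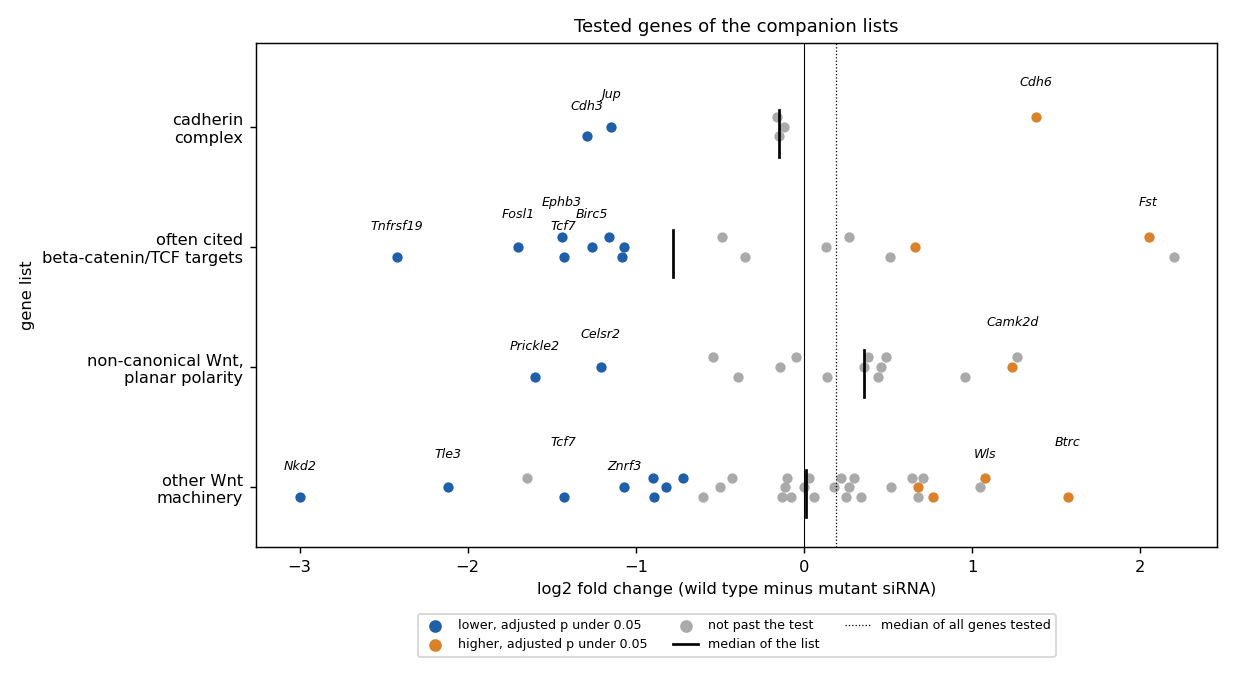
Log2 fold change (wild type minus mutant siRNA) of the tested genes of the 4 further lists. Each point is a gene, blue or orange where limma gave an adjusted p under 0.05, short bars are the medians of the lists and the dotted line that of all genes tested, 0.19. Up to 6 called genes of the largest change are named in each list, from Nkd2 at -3.00 to Fst at 2.05.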

How the data were processed

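The authors hybridised biotin-labelled RNA of RT4D6 cells to Affymetrix arrays and deposited linear MAS5 intensity values, 1 for each probe set. The version of MAS5 is not given in the sources used here, and the median normalization and detection calls of Methods are not in these values. Of 31099 probe sets 57 controls were left out. From these, log2 values were taken and the array's median subtracted. Limma 3.58.1 (R 4.3.3; lmFit, eBayes with an intensity trend) was run on the 16125 probe sets that reached the median on 2 or more arrays, with Benjamini-Hochberg adjustment over all of them. The number of arrays limits the precision. Gene symbols came from the platform annotation (20826 probe sets with a single symbol, 436 with several, 9780 with none) and promoters from RefSeq, which held 30 of the 41 genes. Fzd2, Fzd3 and Dkk3 are not among these. The members, lists and named genes were chosen with earlier results of these data known. All members are named, of each further list up to 6 called genes of the largest change, and Sox10. Other genes (Ccnd1, Myc, Ppp2ca, Ptk7, Vangl2, those too dim in the target list and the markers) were singled out after their values were seen. The script was tested on simulated data. Python 3.11.15, pandas 2.3.3 and matplotlib 3.10.9 served for tables and plots.

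The study describes 2 independent pairs of cell samples, and the submitters' design also speaks of pairs, so a replicate block on the array number was tried as an alternative. Arrays sharing a number deviated from their groups with a correlation of 0.141. That the array numbers mark the pairs is not stated, and p-values measure the spread between these arrays alone. Also tried were the signals as deposited, quantile normalization, a floor or a pseudocount at the 25th percentile, other filters, limma without a trend, the methods' t-test, the mean of all probe sets of a gene, and each array left out.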

Additional observations from a re-analysis of the deposited data

How the results depend on the processing

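The 5 lower and 3 higher Wnt pathway genes stayed at 5 and 3 with the signals as deposited, after quantile normalization and with both treatments of low signals. The median over all probe sets tested was between 0.05 and 0.13 under these scalings. Without a filter on dim probe sets 4 were lower, Fzd8 being lost (adjusted p = 0.0627 from limma). The filter on all 4 arrays also gave 4 lower, Axin2 not being tested. So did the mean of all probe sets of a gene, where Dkk3 was not tested. All 3 of these settings gave 3 higher. With a single array left out the lower calls ranged from 0 to 5 and the higher calls from 2 to 3, and in the further lists from 7 to 19 lower and from 4 to 9 higher. Limma without an intensity trend called 3 of the Wnt genes lower (Axin2 and Dkk3 kept, Wnt1 gained, Fzd2, Fzd8 and Lef1 lost) and 2 higher (Lgr4 lost), and in the further lists 12 lower and 5 higher. The methods' t-test at an unadjusted p of 0.05 called 2 Wnt genes lower (Axin2 and Fzd2) and 3 higher (Gsk3b, Fzd3 and Axin1, with Lgr4 lost), and 9 lower in the further lists. After Benjamini-Hochberg adjustment that test called 0 in either direction, in the Wnt set as in the further lists. Of all 16125 probe sets tested it called 0 lower and 2 higher. Sox10, at -3.54, did not pass it either (adjusted p = 0.184). The mean of all probe sets of a gene left 3 higher in the further lists. It also turned Ppp2ca, among the lower genes of the other Wnt machinery (-0.82, limma adjusted p = 0.0383), to 0.86 (adjusted p = 0.240). The cause was not tested. The replicate block gave 5 lower and 4 higher Wnt genes, Tcf7l2 being added, and changed no other call of the 21, and in the further lists it gave 20 lower and 10 higher. Left-out arrays put Sox10 between -4.09 and -3.00. Over the alternatives, 296 of 333 values of the tested Wnt genes kept their side of the threshold, 32 called values lost it and 5 gained it. The 333 include the values of the 13 genes that were not called, and all 32 losses fell on the called genes. Of these, Fzd8 kept its call in 9 of 16 alternatives, Lef1 and Lgr4 in 10 of 16 and Fzd2 in 11 of 16. Axin2 and Dkk3 kept it in 12 of 15, and Gsk3b and Fzd3 in 15 of 16. Of the 13 ligands, 11 were under the median on too many arrays to be tested.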
